A study of Mus musculus with 24 samples.

Results

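The genes described here are 7 kinases of the Src family, Blk, Lyn, Fgr, Fyn, Lck, Src and Yes1, together with Csk, the kinase that switches them off. They are 8 of the 39017 genes in a table of read counts from sorted mouse splenic dendritic cells. They were picked by name because of the levels and genotype differences that earlier readings of the same counts had shown, Blk above all, so their levels and differences are given below as a description. Counts of members called at an adjusted p stand beside the share of all genes called, and nothing is read from them. For counts at an unadjusted p, and for groups said not to overlap, no share over all genes was counted. They are a description only. All 8 had enough reads to enter the fit of 18093 genes. Frk, Srms and Ptk6, distant relatives of the family, are outside the chosen set.

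The mice were F1 animals of C57BL/6 x FVB/N and carried either 2 wild type copies of the receptor kinase gene Flt3 (Flt3 +/+, here WT) or 1 copy with an internal tandem duplication (Flt3 ITD/+, here ITD), an activating mutation known from leukaemia. Flt3 binds Flt3 ligand, on which dendritic cell development depends, and the genotype label names no Cre, promoter or transgene beside the allele. From each genotype 5 subsets were sorted from spleen by flow cytometry. PDC are plasmacytoid dendritic cells, C_CD8 and NC_CD8 are subsets that the labels name by CD8 without spelling out the prefixes, and Esamhi and Esamlo are named by high or low Esam. Each of the 2 CD8 subsets has 3 libraries per genotype and each other subset has 2, which makes 24 libraries in 4 batches lettered A to D, all described by the submitters as independent experiments. Within a subset every batch holds 1 WT and 1 ITD library, giving 12 pairs. The labels give neither ages nor the number of animals behind a library.

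The libraries hold 11197145 to 22248404 counts. The sorted subsets carried their defining genes. Siglech stood at 4871 to 5450 CPM (counts scaled to a common library total) in PDC, Xcr1 at 540 to 1200 in C_CD8, Cd8a at 246 to 396 in NC_CD8, and Esam at 56 to 69 in Esamhi against 4 to 14 in Esamlo. In 2 of the 3 NC_CD8 WT libraries, those of batches C and D, the T cell gene Cd3e stood at 25.1 and 12.3 CPM, against at most 4.03 in the other 22 libraries. All comparisons with this group were therefore also fitted with only its batch B library, and those values are given where a call was lost, a direction turned or a value moved by much. That library was then set against groups that hold other batches, so batch is mixed into those values. The Esam subsets have no library of batch B. The kept library itself had a summed level of T cell markers of 171 CPM. Batches C and D of NC_CD8 WT also held more Ncr1, an NK cell gene, at 12.0 and 7.87 CPM against 0. Cd79a, a B cell gene, stood there at 10.8 and 11.2 against 0.38. Unlike Cd3e, these 2 genes reached such levels in other groups too. In batch C, Esamlo WT and Esamhi WT held 12.6 and 8.22 CPM of Ncr1 and 21.4 and 12.4 of Cd79a.

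Src family kinases are membrane-anchored tyrosine kinases that start signalling from receptors without a kinase of their own. They phosphorylate ITAM motifs in chains such as Tyrobp and Fcer1g, which then recruit Syk, and also ITIM motifs in inhibitory receptors, which recruit the phosphatase Ptpn6. Csk phosphorylates their C-terminal tail and holds them closed, and the phosphatase Ptprc (CD45) opens them again. Blk is best known from B cells, Lck from T cells, Fyn from lymphocytes and neurons, Lyn and Fgr from myeloid cells, and Src and Yes1 from most tissues. Blk has also been found in plasmacytoid dendritic cells.

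The annotation, GENCODE M21 on mm10, places Blk (ENSMUSG00000014453) on chromosome 14 at 63372836 to 63417037, minus strand, and Fyn (ENSMUSG00000019843) on chromosome 10 at 39368855 to 39565381, plus strand. Fgr (ENSMUSG00000028874), Lyn (ENSMUSG00000042228) and Lck (ENSMUSG00000000409) lie apart from each other on chromosome 4, at 132974095 to 133001910, at 3678115 to 3813122 and at 129548344 to 129573641. Src (ENSMUSG00000027646) lies on chromosome 2 at 157418444 to 157471862, Yes1 (ENSMUSG00000014932) on chromosome 5 at 32611171 to 32687057, and Csk (ENSMUSG00000032312) on chromosome 9 at 57626646 to 57653631. Of the 50-base stretches of the Lyn exons, 18.3% also occur elsewhere in the transcripts, mostly in the pseudogene Gm11787, and 8.35% of those of Yes1 occur in Gm10461 on the other strand, so counts of these 2 genes are less certain. The other 6 members share none.

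Fgr and Csk, a kinase and the kinase that restrains it, had levels that went together over the 10 groups of libraries (Pearson r = 0.81 of the group means of log2 CPM, a description over groups that share batches). The 250 bases before their first annotated starts, from RefSeq on GRCm38, are printed for this reason. Capitals mark matches on either strand to GAGGAA, 1 form of the site bound by Ets factors such as the myeloid factor PU.1, and to CAGNTG, an E-box read by factors such as Tcf4 of plasmacytoid cells. Shorter and other forms of the Ets site were not searched and are not marked.
Fgr, chr4:132973845-132974094, plus strand: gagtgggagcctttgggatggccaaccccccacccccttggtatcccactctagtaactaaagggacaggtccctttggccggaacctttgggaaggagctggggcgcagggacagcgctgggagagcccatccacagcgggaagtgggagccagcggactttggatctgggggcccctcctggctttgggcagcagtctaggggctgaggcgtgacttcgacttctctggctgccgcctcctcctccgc
Csk, chr9:57653632-57653881, minus strand: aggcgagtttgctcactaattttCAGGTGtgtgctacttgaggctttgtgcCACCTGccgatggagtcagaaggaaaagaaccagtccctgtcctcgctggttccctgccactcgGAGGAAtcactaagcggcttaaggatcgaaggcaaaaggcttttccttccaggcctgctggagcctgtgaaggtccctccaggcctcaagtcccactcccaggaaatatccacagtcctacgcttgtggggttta
The Csk window holds 2 E-boxes and 1 GAGGAA, and the Fgr window holds neither of these searched motifs. Among 32851 mouse promoter windows of that length 44.8% hold the E-box and 23.3% hold GAGGAA, so a match is common. The STAT motif TTCNNNGAA, searched because Flt3 signals through STAT5, is in neither window and in 7.02% of all windows. The promoter table held 6 of the 8 members.

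The mix of the 7 Src family members differed between PDC, C_CD8, NC_CD8 and the Esam subsets. Levels of different genes were compared as CPM per kb of exon, summed over the 7 members without Csk, so the shares are shares of these 7 genes and not of every kinase of the family. In PDC WT, Fyn made up 56.8% ± 4.003 (SD, n = 2) of the sum, with Fgr at 21.3% ± 8.62 and Lyn at 20.3% ± 4.31. In C_CD8 WT, Lyn led with 66.7% ± 1.71 (SD, n = 3), Fyn held 23.3% ± 1.10 and Fgr only 7.43% ± 0.54. In NC_CD8 WT, Lyn led with 46.6% ± 1.29 (SD, n = 3), followed by Fgr at 31.8% ± 0.62 and Fyn at 19.1% ± 0.82. The 2 Esam subsets were alike, with Lyn at 52.4% ± 0.95 in Esamhi and 54.6% ± 0.26 in Esamlo, Fgr second in both, and Fyn at 8.97% ± 1.60 and 12.6% ± 1.62 (SD, n = 2 each). Blk reached 2.02% ± 0.17 in Esamhi WT and 1.25% ± 0.47 in PDC WT. The summed level was 628.5 ± 4.40 CPM per kb in PDC WT, against 155 ± 0.82 in C_CD8 WT, 312 ± 16.7 in NC_CD8 WT, 278 ± 16.7 in Esamhi WT and 275 ± 3.98 in Esamlo WT. In bulk samples like these, a level shared by all cells cannot be told apart from a higher level in a few of them.

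**Figure D1:**
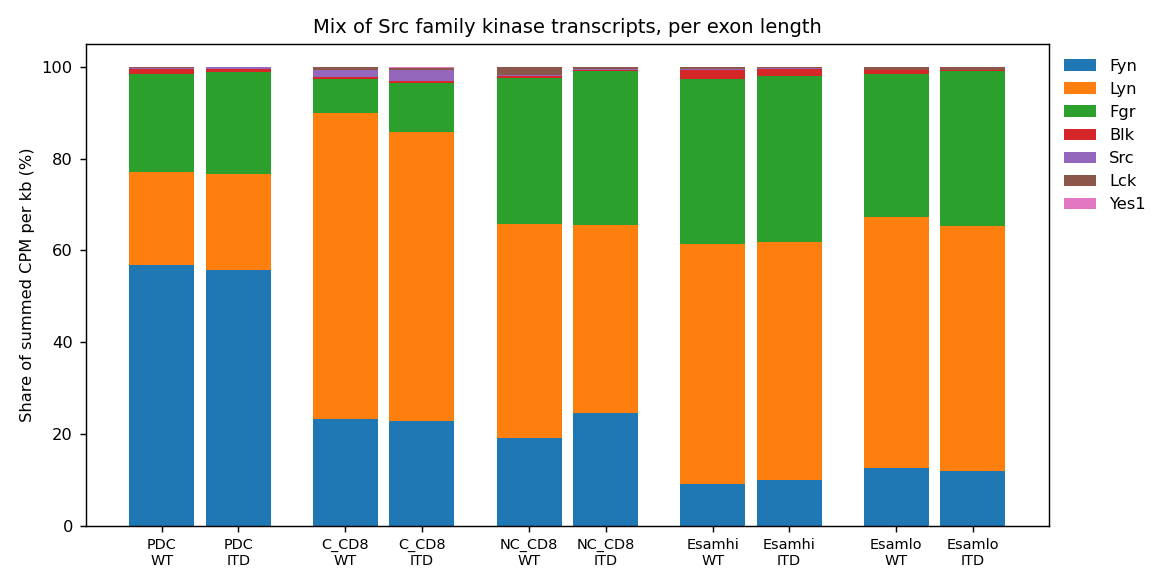
Share of each of the 7 Src family members in their summed CPM per kb of exon, in percent, as the mean over the libraries of each group of subset and genotype. Fyn fills more than any other member in PDC, and Lyn in the other 4 subsets.

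Fyn was the most unequal of the abundant members. Its levels were 1643 and 1473 CPM in PDC WT and 1409 and 1467 in PDC ITD. In NC_CD8 they were 250, 248 and 284 in WT and 316, 344 and 387 in ITD. The remaining subsets lay between 99.2 and 166 CPM in all 14 libraries. PDC and NC_CD8 thus stood apart from every other subset without overlap, and the PDC WT mean was 14.4 times that of Esamhi WT, the lowest. In the edgeR fit the log2 difference of Fyn, NC_CD8 WT minus PDC WT, was -2.60 ± 0.15 (SE), and NC_CD8 WT minus C_CD8 WT gave 0.61 ± 0.13. The latter difference was 0.59, 0.69 and 0.88 log2 units within batches B, C and D.

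Fgr, a kinase of integrin and Fc receptor signalling in myeloid cells, was low in 1 subset. C_CD8 held 47.0, 45.5 and 40.8 CPM in WT and 79.5, 58.5 and 49.9 in ITD. All libraries of the other subsets lay between 315 and 663 CPM, with no overlap with C_CD8. PDC spread most, with 370 CPM in batch A and 661 in batch B for WT and 362 and 663 for ITD, so Fgr there differed between batches and hardly between genotypes. NC_CD8 WT, with 363, 376 and 412 CPM, overlapped Esamhi WT, with 421 and 354. The log2 difference between NC_CD8 WT and C_CD8 WT was 2.99 ± 0.23, and 2.94, 3.05 and 3.33 within the 3 batches.

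Lyn, which both starts and dampens receptor signals, was the most even member. It ran from 407 to 433 CPM in C_CD8 WT, from 572 to 604 in NC_CD8 WT, from 576 to 611 in Esamhi WT and stood at 615 and 607 in Esamlo WT. PDC WT held 601 and 439. Only C_CD8 lay below all others, and the ratio of the highest to the lowest WT mean was 1.45. Its difference between NC_CD8 and C_CD8 ran from 0.47 to 0.52 within the WT batches and from 0.39 to 0.53 within the ITD batches.

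Csk followed Lyn over the groups (r = 0.90). Esamhi WT held 187 and 209 CPM, Esamlo WT 169 and 147, NC_CD8 WT 120, 155 and 160, PDC WT 99.96 and 186, and C_CD8 WT 74.3, 94.8 and 81.1. C_CD8 was again the lowest without overlap in WT, and the highest WT mean was 2.37 times the lowest. As with Fgr, the PDC library of batch B was the higher one in both genotypes, with 110 and 168 CPM in ITD.

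Blk was rare everywhere and spread widely. PDC WT held 26.9 and 15.4 CPM, from 598 and 291 reads, and Esamhi WT 14.9 and 15.4, from 258 and 249 reads. NC_CD8 WT held 6.29, 4.39 and 4.89 CPM, Esamlo WT 4.03 and 6.79, and C_CD8 WT 1.05, 0.85 and 2.33. PDC and Esamhi stood above the rest, NC_CD8 and Esamlo overlapped each other, and C_CD8 lay below all. Among the ITD libraries this order changed, since NC_CD8, with 0.80, 1.17 and 0.60 CPM, overlapped C_CD8, with 0.50, 1.63 and 1.805, and both lay below Esamlo, with 1.96 and 2.12. Within batches B, C and D, NC_CD8 was above C_CD8 by 2.48, 2.26 and 1.05 log2 units in WT, and stood at 0.50, -0.42 and -1.42 relative to it in ITD.

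Src and Yes1, the broadly expressed members, were at the low end. Src stood at 12.0, 6.72 and 13.8 CPM in C_CD8 WT and 4.27 and 9.45 in PDC WT, and at most 3.36 in the other WT libraries. Esamlo WT had 0.43 and 0.12 CPM, the lowest, and no WT library of it reached any library of another subset. Yes1 did not exceed 1.89 CPM in any WT library. Its 2 highest values, 5.02 and 4.28 CPM, both came from ITD libraries of batch B, in C_CD8 and NC_CD8, and the PDC ITD library of batch B had no Yes1 read, which allows up to 3.

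**Figure D2:**
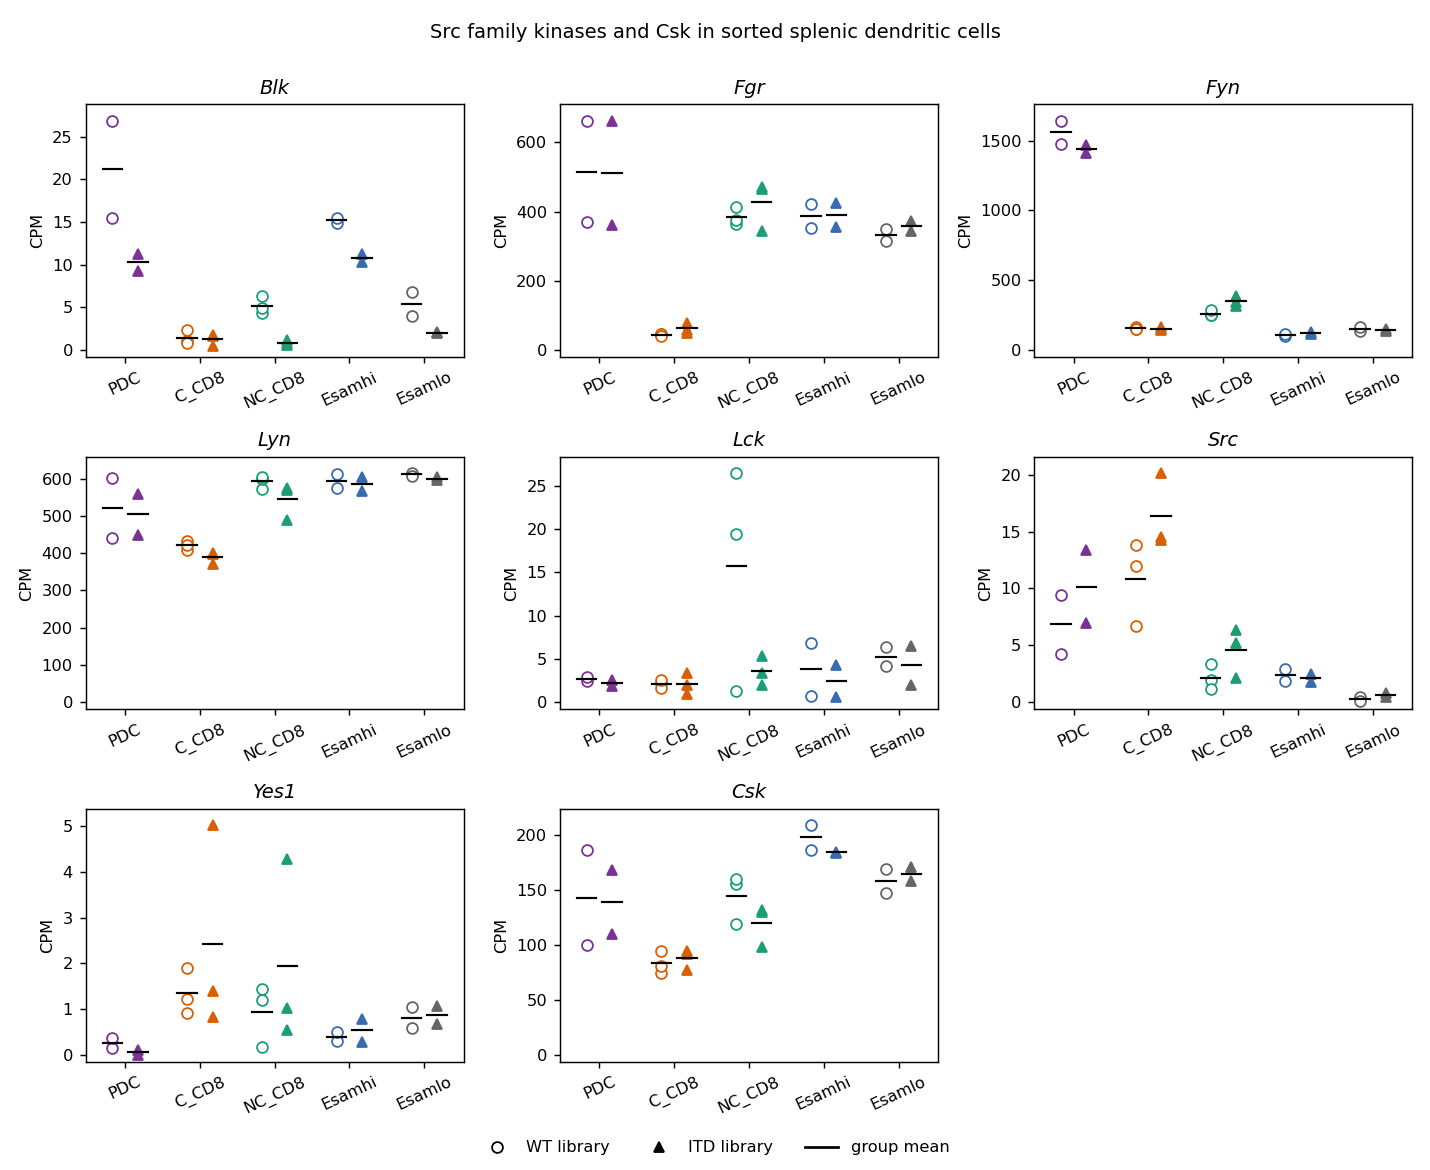
CPM of the 8 members in each library by subset, with open circles for WT, triangles for ITD and bars for group means, on linear axes that start near 0 and differ between genes. Fyn stands out in PDC, Fgr is low in C_CD8, and the Blk triangles lie below the circles in PDC, NC_CD8, Esamhi and Esamlo.

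Lck, the kinase of the T cell receptor, was high in 2 libraries. NC_CD8 WT held 1.30, 26.5 and 19.5 CPM in batches B, C and D, and all 21 libraries outside that group lay between 0.61 and 6.89. Those 2 libraries are the ones in which Cd3e stood at 25.1 and 12.3 CPM, and in the third NC_CD8 WT library Cd3e stood at 0.48 and Lck at 1.30. Over 17 T cell markers the sum was 171, 281 and 231 CPM in NC_CD8 WT of batches B, C and D, and 90.7 to 93.4 in NC_CD8 ITD. In the other groups it ran from 27.8 CPM in a C_CD8 WT library to 147 in an Esamhi ITD library. All 17 markers had reads in the NC_CD8 WT libraries of batches C and D, Zap70 was at 0 in that of batch B, and Cd3e, Thy1, Zap70 and Bcl11b were at 0 in the NC_CD8 ITD library of batch B. The sum of 10 NK cell markers was also higher in NC_CD8 WT, at 137 to 221 CPM, than in NC_CD8 ITD, at 89.8 to 102. The part of T cells in the Lck reads was not tested. The log2 difference of Lck between NC_CD8 WT and C_CD8 WT was 2.70 ± 0.88 with all libraries, and -0.74 when only the library of batch B was kept in NC_CD8 WT.

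Blk is a B cell kinase, so its levels were set beside B cell markers. In PDC, where Blk was highest among the WT groups, Ms4a1 (CD20) stood at 0 to 0.40 CPM and Pax5 at 0 in all 4 libraries. The sum of 14 B cell markers was nevertheless highest in PDC, at 3817 to 6711 CPM against 464 to 1627 elsewhere. That list includes Spib, a gene of plasmacytoid cells too, and Igkc. C_CD8, where Blk was lowest among the WT groups, held the highest Ms4a1 values, with 20.1 to 38.2 CPM over its 6 libraries. In NC_CD8, Ms4a1 moved with Blk, at 22.5, 25.3 and 26.2 CPM in WT and 12.4, 11.1 and 13.2 in ITD, without overlap. Pax5 was at 0 in both NC_CD8 libraries of batch B, and Cd79a, a B cell receptor subunit, at 0.38 and 0.11 CPM, where Blk stood at 6.29 CPM in WT and 0.80 in ITD. Igkc fell with Blk in that pair, from 58.4 CPM in WT to 6.28 in ITD. In batches C and D of NC_CD8, Igkc stood at 253 and 95.2 CPM in WT and at 172 and 126 in ITD. In the fit with pair levels, Cd22 and Bank1 of the B cell list were called lower in NC_CD8 ITD, beside 4.79% of all genes. The sum of the 14 markers was 921 to 1608 CPM in NC_CD8 WT and 759 to 1288 in NC_CD8 ITD and overlapped. The part of B cell reads in the Blk difference of NC_CD8 was not tested.

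**Figure D3:**
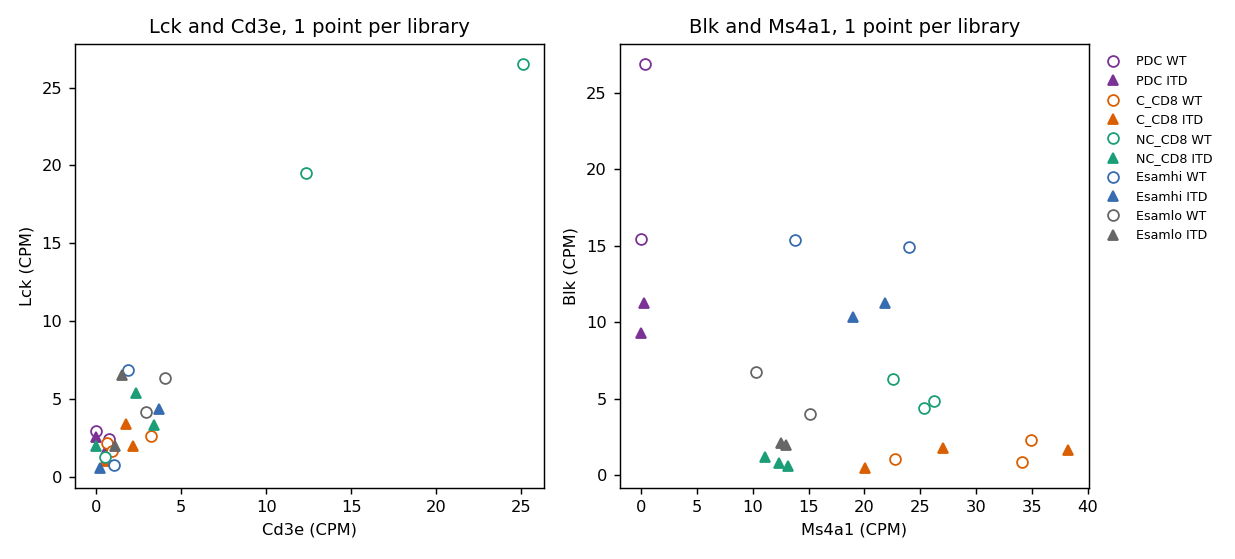
Left, Lck against Cd3e and right, Blk against Ms4a1, in CPM with 1 point per library. The 2 NC_CD8 WT libraries of batches C and D lie far to the upper right for Lck, while the 4 PDC libraries have the least Ms4a1 and include the 2 highest Blk values.

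The study asks what the Flt3 mutation does to these subsets, and within the 12 pairs Blk had the largest median difference among the members. It was lower in ITD than in WT in 11 of 12 pairs, with a median of -0.89 log2 units and a range from -2.81 to 0.88. The exception was the C_CD8 pair of batch C, with 18 reads in WT and 32 in ITD. In NC_CD8 the 3 pairs gave -2.81, -1.80 and -2.81, from 131, 80 and 69 reads in WT and 14, 20 and 10 in ITD, and the 2 groups did not overlap. The groups also did not overlap in PDC (26.9 and 15.4 CPM against 11.3 and 9.31), Esamhi (14.9 and 15.4 against 11.2 and 10.4) or Esamlo (4.03 and 6.79 against 1.96 and 2.12). With 2 libraries per genotype in each of these subsets, groups easily fail to overlap. The share of all genes without overlap was not counted. They overlapped in C_CD8, the lowest subset for Blk among the WT groups.

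In the edgeR fit the Blk difference was -2.51 ± 0.44 (SE) log2 units in NC_CD8, -1.38 ± 0.51 in Esamlo, -1.03 ± 0.47 in PDC, -0.48 ± 0.47 in Esamhi and -0.07 ± 0.44 in C_CD8. Averaged over the 5 subsets it was -1.10 ± 0.21. The fitted values were nearly the same when each pair was given its own level, at -2.50 ± 0.34 in NC_CD8 and -1.08 ± 0.15 on average. Leaving out 1 library at a time kept the NC_CD8 value between -2.76 and -2.30. Without the NC_CD8 WT libraries of batches C and D, which hold the most Cd3e, it was -2.87.

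Fyn differed in 1 subset. In NC_CD8 it was higher in ITD in each pair, by 0.34, 0.47 and 0.45 log2 units, and its 6 libraries did not overlap between genotypes. The fit gave 0.51 ± 0.13, and ± 0.06 around the same value with pair levels. In the other subsets the fitted values ran from -0.11 ± 0.16 in PDC to 0.15 ± 0.16 in Esamhi, and Fyn was lower in ITD in all 7 remaining pairs outside Esamhi. Per kb, Fyn made up 24.5% ± 1.41 of the 7 summed members in NC_CD8 ITD against 19.1% ± 0.82 in WT (SD, n = 3 each).

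Fgr differed most in C_CD8. Each pair there was higher in ITD, by 0.76, 0.36 and 0.29 log2 units in batches B, C and D, and the CPM of 79.5, 58.5 and 49.9 lay above the WT values of 47.0, 45.5 and 40.8. The fit gave 0.51 ± 0.21 there and 0.24 ± 0.21 in NC_CD8, and at most 0.13 ± 0.26, in Esamlo, in the other 3 subsets. Over all subsets Fgr was higher in 10 of 12 pairs, with a median of 0.11.

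Src was higher in ITD in 10 of 12 pairs, all but the 2 Esamhi pairs, with a median of 0.67 log2 units. In C_CD8 the ITD libraries held 20.2, 14.3 and 14.6 CPM against 12.0, 6.72 and 13.8, without overlap. In NC_CD8 the pair differences were 0.63, 0.10 and 2.35, so batch D carried most of the fitted 1.16 ± 0.48, and with only batch B kept in NC_CD8 WT the fit gave 0.46. Averaged over subsets the value was 0.68 ± 0.27.

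Lyn was lower in ITD in 11 of 12 pairs but by little, with a median of -0.07 and a range from -0.23 to 0.03, and a fitted average of -0.04 ± 0.07. Pair differences divide by the library total and lack the scaling of the fit. In NC_CD8 the fitted Lyn (-0.03), Csk (-0.18) and Fyn (0.51) lay above all of their pair values. Counts of signs for differences this small can thus depend on the scaling. Csk was lower in 7 of 12 pairs, with an average of -0.03 ± 0.09, and its 3 NC_CD8 pairs were all lower. Yes1 was higher in 7 of 12 with an average of 0.11 ± 0.53. Lck was lower in 9 of 12 pairs, and its NC_CD8 value of -2.02 ± 0.85 turned to 1.44 when only the batch B library was kept in NC_CD8 WT. Its NC_CD8 pair of batch B gave 0.60, from 27 reads in WT and 35 in ITD.

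**Figure D4:**
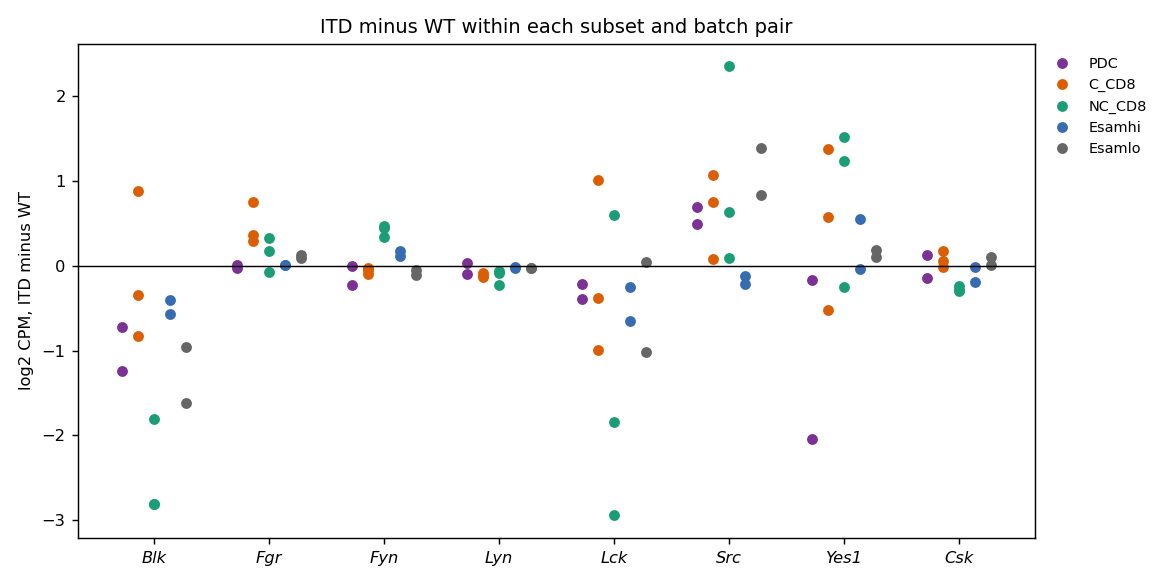
Log2 difference in CPM, ITD minus WT, in each of the 12 pairs of libraries from the same subset and batch, coloured by subset. The Blk points lie below 0 in 11 pairs and lowest in NC_CD8, and the 3 NC_CD8 points of Fyn lie above 0.

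Of the 8 members, 1 (Blk) passed an adjusted p of 0.05 in the average over subsets, where 0.359% of all genes tested did, and 1 (Blk) in NC_CD8, where 0.31% did. None passed in PDC, C_CD8, Esamhi or Esamlo, where 0.0608%, 0.0166%, 0% and 0.00553% of genes did, while 1, 1, 0 and 1 members had an unadjusted p under 0.05. The share of all genes at that unadjusted threshold was not counted. With pair levels Fyn joined Blk in NC_CD8, with 4.79% of genes called, Fgr was called in C_CD8, with 1.23%, and Blk stayed called in the average, with 6.83%. Nothing is read from these shares, since the members were chosen with these contrasts in view. The NC_CD8 call of Blk held in 6 of 12 alternatives and was lost without the WT library of batch B or without any 1 of the 3 ITD libraries, with only NC_CD8 in the fit, and with only batch B kept in NC_CD8 WT. The average call held in 20 of 29 and was lost in 9 that each left out 1 library of PDC, Esamhi or Esamlo.

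Unequal ITD differences between subsets were fitted for all genes. In the fit without pair levels no member and no listed gene passed, and 0% of all genes did for the 5 subsets and 0.00553% for NC_CD8 against C_CD8. At an unadjusted p under 0.05 stood 2 of the 8 members in each of these fits, and 7 and 11 of the pathway genes. No share of all genes at that threshold was counted, so nothing is read from these counts. The estimate of NC_CD8 minus C_CD8 was -2.44 ± 0.62 for Blk and 0.56 ± 0.19 for Fyn. With pair levels, added after seeing the data, Fyn was called in both, where 0.304% and 0.647% of genes were. Nothing is read from these calls, since the members were chosen with their ITD differences known.

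Between WT subsets, 7 of 8 members differed in NC_CD8 against C_CD8, where 25% of all genes tested did. Blk, Lyn, Fgr, Fyn, Lck and Csk were higher in NC_CD8 and Src was lower, at -2.42 ± 0.49 log2 units. The calls of Blk, Fgr and Fyn held in all 12 alternatives and that of Lyn in 3. That of Csk was lost without the NC_CD8 WT library of batch D, and that of Lck without that of batch C or of batch D, without any 1 C_CD8 WT library and with only the compared groups. With only batch B kept in NC_CD8 WT, Blk, Fgr and Fyn stayed called, and the calls of Lyn, Lck, Src (-1.70) and Csk (0.51) were lost. Against PDC, 3 of 8 differed (Blk, Fyn and Src, each lower in NC_CD8), with 26.4% of genes called. The Fyn call held in all 11 alternatives. That of Blk was lost with only batch B kept in NC_CD8 WT, at -1.71. That of Src held in 6 and was lost there too, at -0.96, without the PDC WT library of batch B, without the NC_CD8 WT library of batch C or of batch D, and with only the compared groups. In PDC against C_CD8, 4 of 8 differed (Blk, Fgr, Fyn and Csk, each higher in PDC), with 37.8%. The Csk call was lost without the PDC WT library of batch B and with only the compared groups. Against the mean of both Esam subsets, Fyn alone was called, at 0.94 ± 0.12, with 7.63%. Between Esamhi and Esamlo edgeR called none, with 0.658%, and Src stood 3.14 ± 0.75 and Blk 1.47 ± 0.49 log2 units higher in Esamhi. Src was called there by DESeq2, at 3.20, and by edgeR without the filter on low counts. The Src difference rests on 33 and 47 reads in Esamhi WT and only 7 and 2 in Esamlo WT. With a term for batch, Blk, Src and Fyn were called there, with 6.36% of genes, as were 7 members for NC_CD8 against PDC, with 43.5%, and 3 against the Esam mean, with 18.5%. In PDC against C_CD8 the batch term added Yes1, lower in PDC at -3.65 ± 1.069, and Srms, higher at 5.87 ± 1.92, with 53% of genes called. Both rest on few reads. Srms had 0 and 15 reads in PDC WT and 0, 0 and 8 in C_CD8 WT, and Yes1 had 3 and 7 against 38, 26 and 18. Without the batch term Srms was at 1.37 ± 1.75 and Yes1 at -2.51 ± 1.13. Frk had at most 11 reads in a group and was not tested. Srms and Ptk6 were called in no comparison without a batch or pair term, and Srms stood highest in Esamhi, at 3.81 ± 0.58 CPM in WT and 3.79 ± 0.97 in ITD.

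Genes whose group means resembled those of a member were ranked by Pearson r over the 10 groups, among 11084 genes. Closest to Blk were Rapgef1 (r = 0.95), Ncald and Tspan2 (0.94 each), and Cars2 and Fbxo5 (0.93 each). For Fyn they were Polr3d and Man2b2 (0.996 each) and Pacsin1 (0.99), which is on the list of plasmacytoid markers. For Fgr they were Ctsa, Myo5a and Ikzf1 (0.99 each). For Lyn they were Arhgap9 and Tesk2 (0.97 each), and Slc43a2 (0.96), and for Csk Sesn1 (0.98), Tfeb and Gngt2 (0.97 each). For Lck the values were lower, with Haus2 at 0.90, and for Src and Yes1 they began with Usp38 and Stx3, at 0.95 each. Groups share batches, and a pattern set by 1 subset, as for Fyn, gives high r easily. Between members, Lyn and Src ran opposite (r = -0.85).

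The other genes of the pathway were read from lists of 92 genes, of which 90 were tested. In NC_CD8 WT against C_CD8 WT, where 25% of all genes tested were called, 36 were higher and 10 lower, with a median difference of 0.78 log2 units against -0.0046 over all genes. These were 31 and 7 with only batch B kept in NC_CD8 WT. In PDC against C_CD8 30 were higher and 24 lower, beside 37.8% of all genes. In NC_CD8 against PDC 32 were higher and 18 lower, beside 26.4%, and in NC_CD8 against the Esam mean 14 and 14, beside 7.63%. The last 2 comparisons had 18 and 15, and 9 and 7, with only batch B kept in NC_CD8 WT. Between Esamhi and Esamlo 5 receptors were lower in Esamhi and none higher, among them the Fc receptors Fcgr2b at -2.40 ± 0.23 and Fcgr3 at -2.77 ± 0.58, beside Clec12a, Clec9a and Cd8a. Clec9a and Cd8a are also on the list of cDC1 markers. Xcr1, another gene of that list, stood at 34.4 and 32.1 CPM in Esamhi WT and 108 and 70.1 in Esamlo WT. The part of cDC1 reads in these differences was not tested.

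Among 20 tested regulators of the kinases, NC_CD8 exceeded C_CD8 for 6 and fell short for 3, again beside 25% of all genes. Pag1, the membrane anchor of Csk, was higher by 1.77 ± 0.20, Ptpn6, the phosphatase of ITIM receptors, by 1.75 ± 0.20, and Ptprc by 0.91 ± 0.15 (edgeR adjusted p = 5.02e-06, 4.59e-06 and 0.00019). Ptpn22, a phosphatase that works with Csk, was nearly missing in PDC, with 2.25 ± 0.70 CPM in WT (SD, n = 2) against 102 ± 15.4 in C_CD8 WT (n = 3), a log2 difference of -5.59 ± 0.34 (adjusted p = 7.09e-10). Sla2, an adaptor that limits receptor signals, was the reverse, with 379 ± 165 CPM in PDC WT and 0.72 ± 0.26 in C_CD8 WT. PDC thus carried the most Fyn with little Ptpn22, and C_CD8 the least Fgr, Lyn and Csk with low Pag1, at 9.81 ± 2.16 CPM.

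Of the 33 downstream kinases and adaptors, 9 were higher and 4 lower in NC_CD8 than in C_CD8, beside the same 25%. Blnk, the adaptor that carries the signal of Syk, stood at 396 ± 92.5 CPM in PDC WT (SD, n = 2), 53.7 ± 15.7 in NC_CD8 WT and 1.91 ± 0.70 in C_CD8 WT (n = 3 each). Its differences from C_CD8 were 7.60 ± 0.60 log2 units in PDC and 4.69 ± 0.53 in NC_CD8 (adjusted p = 1.82e-08 and 4e-06, edgeR). Syk itself was 781 ± 184 CPM in PDC WT, 473 ± 157 in NC_CD8 WT and 158 ± 14.3 in C_CD8 WT. Btk was lower in each of PDC and NC_CD8 than in C_CD8, with -0.87 log2 units in both cases. Its NC_CD8 call was lost with only batch B kept in NC_CD8 WT, at -1.10. With a term for batch its PDC call was lost. That term also called Btk lower in NC_CD8 than in PDC, beside 43.5% of all genes. Lcp2, an adaptor next to Blnk in function, was lower in PDC than in C_CD8, with a difference of -3.21 ± 0.42.

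Among 35 receptors and signalling chains, 21 were higher and 3 lower in NC_CD8 than in C_CD8, beside the same 25%. The largest differences were those of Klra17 (6.79 ± 0.58), Itgb3 (6.13 ± 1.06), Cd33 (5.82 ± 0.56) and Siglech (5.30 ± 0.60), and Cd36, Clec9a and Cd8a were lower. With only batch B kept in NC_CD8 WT these calls held, except that of Cd8a, at -0.77. Tyrobp, the ITAM chain of several of these receptors, was highest in PDC, with 1832 ± 216 CPM in WT, against 468 ± 38.8 in NC_CD8 and 246 ± 33.7 in C_CD8. Siglech, Sirpa, Cd4, Cd8a and Clec9a are also markers of the subsets themselves.

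Between genotypes few of these genes passed. None of the 90 was called in the average, PDC, C_CD8, Esamhi or Esamlo with edgeR, where 15, 4, 10, 0 and 6 had an unadjusted p under 0.05. How many of all genes did was not counted, so nothing is read from these 5 values. DESeq2 called 3 in the average. In NC_CD8, 1 was lower and none higher, the scavenger receptor Cd36, which stood at 6.46 ± 2.02 CPM in ITD against 52.4 ± 44.7 in WT (n = 3 each) and gave -2.89 ± 0.50 (adjusted p = 0.0143, edgeR). It was -2.80 with only batch B kept in NC_CD8 WT. Cd36 was highest in C_CD8, and the sum of 10 cDC1 markers, which is highest in C_CD8 and PDC, moved with it. That sum was 1445 to 2569 CPM in NC_CD8 WT and 966 to 1119 in NC_CD8 ITD, and all 10 had reads in each of these libraries. Xcr1, the chemokine receptor of cDC1, stood at 51.9, 165 and 23.3 CPM in WT and 14.2, 8.51 and 7.04 in ITD, without overlap. The part of cDC1 reads in the Cd36 difference was not tested. With pair levels, where 6.83% of all genes were called, 10 genes were higher and 8 lower in the average. Among them Blnk was higher by 0.43 ± 0.08 (adjusted p = 0.01) and Flt3 lower, at -0.30. In NC_CD8, where they called 4.79% of all genes, pair levels gave 1 higher, Blnk at 0.55, and 12 lower, including Ptpn22 at -0.50 and Siglech at -0.82. Zap70, Txk and Cd28, genes of T cells, were also lower there, with values from -3.43 to -2.58, and moved with Cd3e, which stood at 0.48, 25.1 and 12.3 CPM in WT and 0, 3.40 and 2.33 in ITD. With only batch B kept in NC_CD8 WT the fit without pair levels gave 2.39 for Txk and 1.75 for Cd28, so their direction turned. That fit sets a WT library of batch B against ITD libraries of batches B, C and D. Batch and genotype cannot be told apart in it.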

How the data were processed

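Per the labels' protocols, RNA of sorted splenic dendritic cells was isolated with the PicoPure kit (in some cases after Trizol), made into cDNA with SMART-seq v4 and built into libraries with a Clontech low input kit. The submitters' processing notes name bcl2fastq 1.8.4, Bowtie2 with the version 0.4, DESeq2 1.8.2 and the build mm10; which counter was used, and with which strand setting, is not given in the sources used here. Bowtie2's version is printed as noted there. The deposited values are the authors' raw read counts for 39017 genes, of which 37607 carry a symbol, and all 24 columns matched a library's title.

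Counts were fitted with edgeR 4.0.16 (quasi-likelihood, TMM scaling, filterByExpr with a minimum count of 10, 18093 genes, 10 group means, 14 residual degrees of freedom) in R 4.3.3. Differences were called at a Benjamini-Hochberg adjusted p under 0.05 over all genes tested. Standard errors are the unshrunk log2 difference over the root of F. CPM divide by the library total, and pair differences add a prior count of 2. Pairs come from the batch label: in 12 of 12, the 2 libraries deviated together from their group means (r from 0.141 to 0.640), and the fit with 1 level per pair is given where it changed a call. In PDC, Esamhi and Esamlo, with 2 libraries per genotype, both pairs have the same r by construction. These are thus fewer than 12 separate values. Other alternatives were a batch term, RLE scaling, no filter, DESeq2 1.42.0, only the compared groups, and each library left out. Keeping only batch B in NC_CD8 WT, and pair levels in the tests between subsets, were chosen after seeing the data.

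The members and gene lists were chosen with earlier results of these data known. Named genes are the members, Frk, Srms and Ptk6, up to 5 called genes per list, direction and comparison, markers, and the genes most like a member. Levels of Ptprc, Syk, Tyrobp and Pag1 in further groups, and the genes named from the fit with pair levels, were picked after their values were seen. Of 92 pathway genes 91 are in the table and 90 were tested. A few genes of the first lists are not reported here, and all counts and sums over lists are without them. The edgeR script was checked on simulated counts.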

Additional observations from a re-analysis of the deposited data

Results flagged for a closer look

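Fyn is listed because 1 fit called its ITD difference unequal in the 2 CD8 subsets, and since it was chosen with these differences known, its values are a description. The difference was 0.56 log2 units larger in NC_CD8 than in C_CD8, higher in ITD in 3 of 3 NC_CD8 pairs and lower in 3 of 3 C_CD8 pairs. It was called only in the edgeR fit with pair levels, added after seeing the data, where 0.647% of all genes were. Of the 90 pathway genes 4 were called in that test (adjusted p by Benjamini-Hochberg over all genes tested). The difference was -1.61 log2 units for Siglech (adjusted p = 0.0086), -1.33 for Cd22 (0.0164), -1.44 for Cd5 (0.041) and -2.26 for Itgb3 (0.0037). Cd22 and Cd5 are also on the B cell and T cell marker lists, and Cd3e stood at 25.1 and 12.3 CPM in 2 of the 3 NC_CD8 WT libraries. The part of those cells in the differences was not tested. Itgb3 in C_CD8 ranged widely, at 11.1 ± 15.4 CPM in ITD and 2.02 ± 2.61 in WT (SD, n = 3 each). None of these 5 was called without pair levels.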

How the results depend on the processing

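Counts below are called genes among the 90 pathway genes, with members among the 8 after them. In the fit of all groups without a block they were 0 and 1 for the ITD average, 0 and 0 in C_CD8, 1 and 1 in NC_CD8, and, between WT subsets, 46 and 7 for NC_CD8 against C_CD8, 50 and 3 against PDC, 28 and 1 against the Esam mean, 54 and 4 for PDC against C_CD8 and 5 and 0 for Esamhi against Esamlo. The replicate block of pairs gave 18 pathway genes for the average, 8 and 1 member in C_CD8, and 13 and 2 in NC_CD8. In the tests of unequal ITD differences the same block gave 2 and 1 over the 5 subsets, and 4 and 1 for NC_CD8 minus C_CD8, against 0 without it. The block of batches gave 7 members for NC_CD8 against PDC, 24 and 3 for Esamhi against Esamlo, and 48 and 3 against the Esam mean. Neither block moved any other of these counts by over 1.5 times. DESeq2 gave 3 for the average, 3 in C_CD8, 3 and 2 in NC_CD8, and 11 and 1 for Esamhi against Esamlo. Without the filter, C_CD8 had 1 and Esamhi against Esamlo 1 member. With only the compared groups, NC_CD8 had 0 and 0 and Esamhi against Esamlo had 2. With only batch B kept in NC_CD8 WT, the average had 1, NC_CD8 no member (0), NC_CD8 against C_CD8 3 members, against PDC 33 and 1 member and against the Esam mean 16, and Lck in NC_CD8 against C_CD8 reversed to -0.74. The cause was not tested, beyond the fewer samples in the last 2 settings.

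Leaving out 1 library gave 0 to 1 for the average (members 0 to 1), 0 to 1 in C_CD8, 0 to 1 in NC_CD8 (members 0 to 1), 42 to 53 for NC_CD8 against C_CD8 (members 4 to 6), 37 to 50 against PDC (members 2 to 4), 18 to 27 against the Esam mean, 49 to 53 for PDC against C_CD8 and 2 to 5 for Esamhi against Esamlo. Where that left 1 library in a group, it is assumed to vary like the others. Of the single differences of members, 1001 values stayed within 1 SD of the main one, 66 moved further and 1 called difference, that of Lck above, reversed. Signs also changed in 68 values whose main difference was not called. In 8 of these the main difference exceeded 1 SD: Lck with only batch B kept in NC_CD8 WT in 3 (1.44 for ITD in NC_CD8, -1.01 against PDC and -1.77 against the Esam mean), Lyn in 3 that compare PDC, Yes1 for ITD in NC_CD8 and Fyn for ITD in Esamhi. Blk in C_CD8, with 7 to 46 reads a library, and Yes1, with at most 75, are limited by counting. So are Blk in NC_CD8 ITD, with 14, 20 and 10 reads, and Src in Esamlo, with 2 to 9 reads a library.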
